A study of Capra hircus with 9 samples.

Results

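The genes described here are 10 genes of the transforming growth factor beta (TGF-beta) pathway, out of 23499 genes measured in the mammary gland of Laoshan dairy goats. They are the 3 ligand genes TGFB1, TGFB2 and TGFB3, the receptor genes TGFBR1, TGFBR2 and TGFBR3, the signal transducer genes SMAD2 and SMAD3, the inhibitor gene SMAD7, and TGFBI, which encodes a secreted matrix protein. They were chosen by symbol, and each symbol was found once in the table. The 9 RNA libraries came from 9 healthy goats of parity 3 with a mean age of 4 years. Of these goats, 3 were in late lactation (LL, 240 days postpartum), 3 in the dry period (DP, 300 days postpartum) and 3 in late gestation (LG, 140 days after mating). The gland was taken after slaughter, so each goat was seen at 1 stage and no goat was followed over time.

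TGF-beta ligands are secreted in a latent form and are released at the cell surface or from the matrix. An active ligand binds the type II receptor TGFBR2, which then activates the type I receptor TGFBR1, and TGFBR3 (betaglycan) is a co-receptor that presents ligand, TGFB2 above all. TGFBR1 phosphorylates SMAD2 and SMAD3, which enter the nucleus with SMAD4, and SMAD7 is a target of the pathway that blocks the receptor. In the mammary gland the pathway is known as a brake on the growth of the epithelium, and TGFB3 is known to rise when milk is no longer removed.

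Values were deposited without a unit and were taken to be FPKM, fragments counted per gene and divided by gene length and library total. On that reading levels can be compared between genes. TGFB3 and TGFBR2 stand in rows that shifted differently between stages, described below, which limits their comparison with the other genes. FPKM carry no read counts, so the depth behind a value is unknown. Summed FPKM ranged from 940676 to 1157010 at LL, from 601250 to 616268 at DP and from 733277 to 768157 at LG. Milk genes took a large part of the sum at LL, with a mean for CSN2 of 94297 FPKM against 32.1 at DP and 4938 at LG. For comparisons between stages each library was therefore divided by a median-ratio factor, which follows the middle gene and not the sum. The factors were 0.498 to 0.605 at LL, 1.44 to 1.53 at DP and 1.20 to 1.31 at LG, smallest where the sums were largest. Log2 fold changes were fitted with limma to log2(scaled FPKM + 1), a scale that understates the changes of low genes. A gene was called when its adjusted p was below 0.05 (Benjamini-Hochberg over 14701 genes) and its log2 fold change was 1 or more in either direction. Without this division the median gene stood 1.09 above LL in DP and 0.93 above LL in LG on the log2 scale, so every difference from LL is given relative to the other genes. The tissue is a mixture of cell types, and a lower level cannot be told apart from fewer cells of a type.

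TGFB1 was the ligand with the lowest level in LL, and it rose in DP. TGFB1 (gene ID 102191364, chromosome 18, 51418423 to 51434470, minus strand) had 0.07, 0.07 and 0.25 FPKM at LL, 4.63, 3.94 and 4.16 at DP, and 1.38, 1.52 and 1.63 at LG. The 3 stages did not overlap, with all DP libraries highest and all LL libraries lowest. After scaling, the mean was 0.227 ± 0.161 (SD, n = 3) FPKM at LL, 2.88 ± 0.148 at DP and 1.21 ± 0.0487 at LG, which put DP 12.7-fold above LL, and 21.6-fold without LL replicate 3. The log2 fold change of TGFB1 was 1.67 (SE 0.12, adjusted p = 8.12e-06) for DP against LL. LG against LL gave 0.86 (adjusted p = 0.000470) and LG against DP gave -0.81 (adjusted p = 0.00103), both under the size needed for a call. With a pseudocount of 0.1 they were 2.11 (adjusted p = 0.000474) and -1.19 (adjusted p = 0.0153), both called, and under quantile normalization LG against LL was 0.45 (adjusted p = 0.0601). All 3 LL values were below 0.5 FPKM, so the gene entered the test through its DP and LG libraries.

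TGFB2 was lowest in LL, and its DP and LG libraries overlapped. TGFB2 (gene ID 100861228, chromosome 16, 20346760 to 20439571, plus strand) had 1.67, 1.84 and 3.16 FPKM at LL, 8.50, 8.49 and 9.47 at DP, and 8.13, 9.52 and 7.31 at LG. Every DP and LG library exceeded the highest LL library, also after scaling. Its log2 fold change was 0.52 (SE 0.17, adjusted p = 0.0263) for DP against LL and 0.64 (SE 0.17, adjusted p = 0.0111) for LG against LL, below the size of a call. For LG against DP the difference was 0.13 (95% confidence interval -0.25 to 0.51, adjusted p = 0.598).

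TGFB3 was high in DP and low at the other stages. TGFB3 (gene ID 102189962, chromosome 10, 15809952 to 15835252, plus strand) had 1.51, 1.35 and 0.98 FPKM at LL, 9.53, 10.25 and 26.93 at DP, and 1.68, 1.78 and 2.32 at LG. Every DP library stood above every other library, and DP replicate 3 stood far above the other DP libraries. TGFB3 rose by a log2 fold change of 1.66 (SE 0.33, adjusted p = 0.00246) in DP against LL and was lower in LG than in DP by -2.05 (SE 0.33, adjusted p = 0.00153). Without DP replicate 3 these became 1.21 (adjusted p = 0.000695) and -1.60 (adjusted p = 0.000502), and both remained called. LG against LL gave -0.39 (95% confidence interval -1.13 to 0.36), and the sign turned without scaling (0.36).

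**Figure D1:**
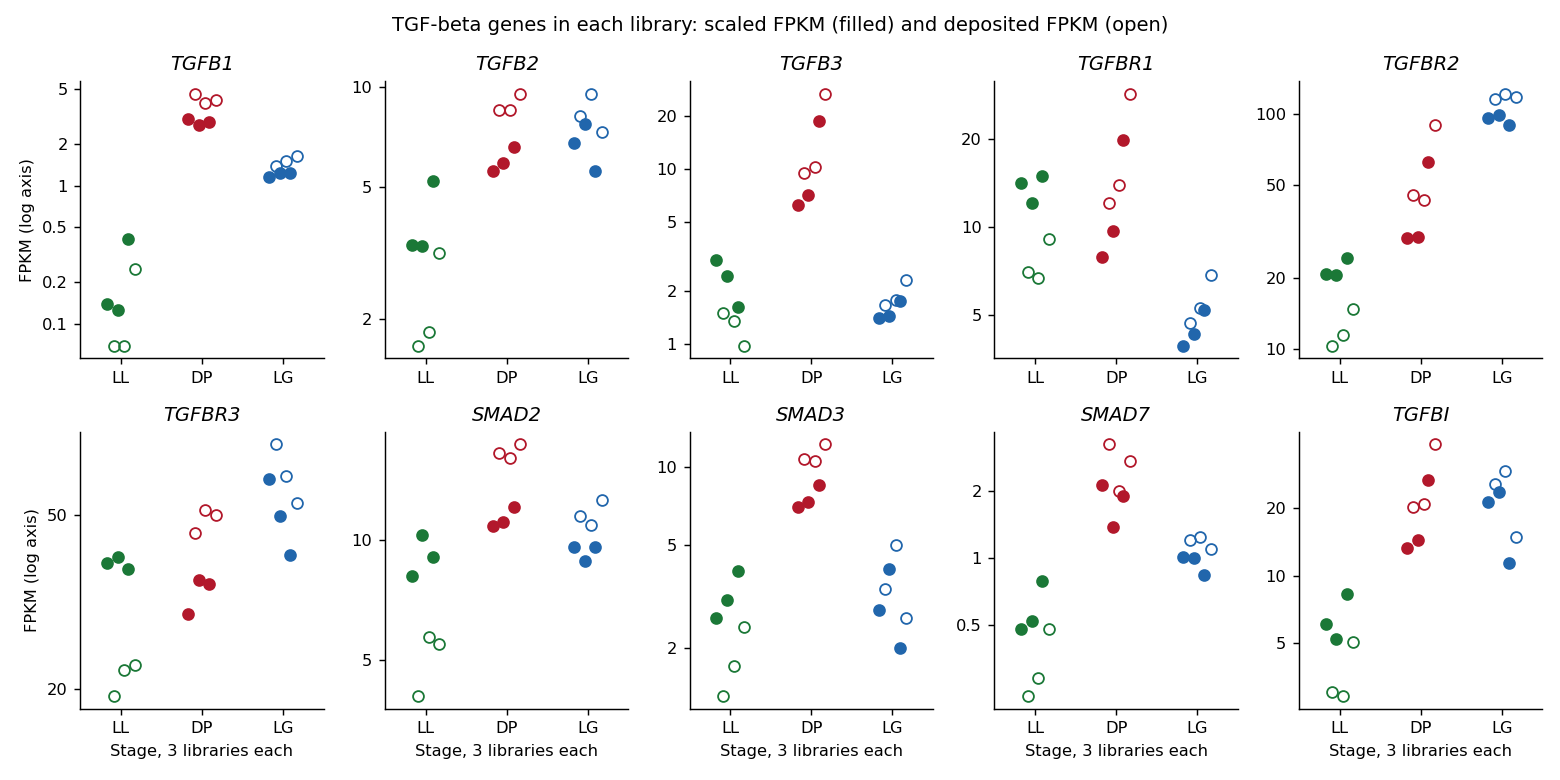
FPKM of the 10 TGF-beta genes in each library on a log axis, with the 3 libraries of each stage side by side in replicate order. Filled points are scaled FPKM and open points deposited FPKM. TGFB1 separates the 3 stages, TGFB3 is high in DP, and TGFBR2 is highest in the LG libraries (115.22, 122.02 and 118.00 deposited FPKM).

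The make-up of the ligand message differed between the stages, on the deposited values within each library. The summed FPKM of the 3 ligands was 3.25, 3.26 and 4.39 at LL, 22.66, 22.68 and 40.56 at DP, and 11.19, 12.82 and 11.26 at LG. TGFB1 made up 3.33% ± 2.05 (SD, n = 3) of this sum at LL, 16.0% ± 5.22 at DP and 12.9% ± 1.40 at LG. TGFB2 held 51.4%, 56.4% and 72.0% of it in the LL libraries, 37.5%, 37.4% and 23.3% in DP, and 72.7%, 74.3% and 64.9% in LG, so DP lay below both other stages. TGFB3 was the largest share at DP at 42.1%, 45.2% and 66.4%, against 46.5%, 41.4% and 22.3% at LL and 15.01%, 13.9% and 20.6% at LG. A one-sided exact permutation test of the spread of the stage means over all ways to place 9 libraries in 3 stages gave p = 0.0143 for TGFB1, 0.00714 for TGFB2 and 0.0179 for TGFB3, and 0.0214 each after adjustment over 6 such measures. The 3 shares sum to 100% and are not independent. The LL and DP libraries overlapped in the TGFB3 share (two-sided exact permutation p = 0.4). DP and LG overlapped in the TGFB1 share (same exact permutation test, p = 0.4). LL and LG overlapped in the TGFB2 share (same exact permutation test, p = 0.2). Where a pair of stages did not overlap, the exact permutation p was 0.1, the smallest that 3 against 3 allows. Leaving TGFB3 aside, TGFB1 amounted to 3.804% to 7.91% of TGFB2 at LL, 43.9% to 54.5% at DP and 16.0% to 22.3% at LG.

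**Figure D2:**
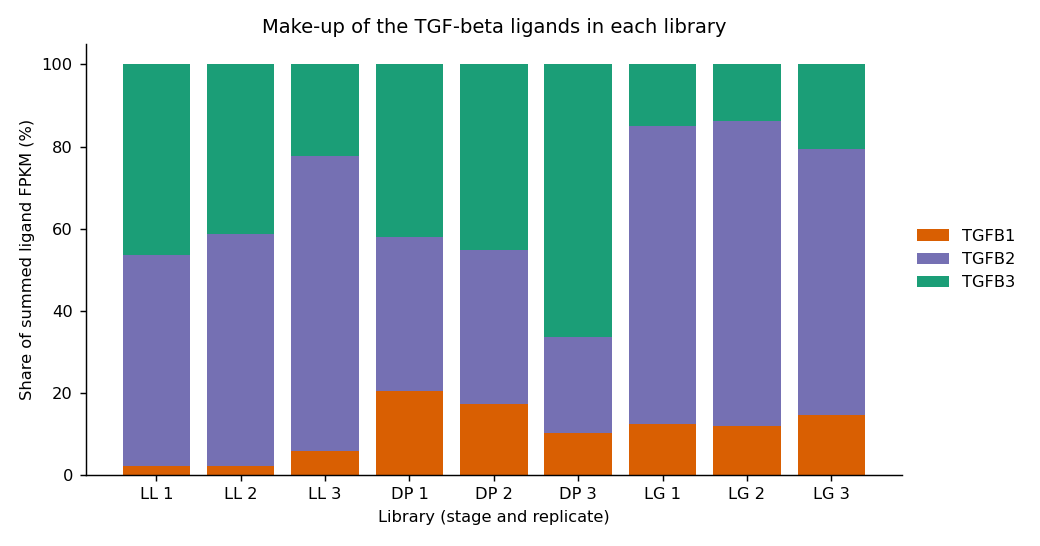
Share of TGFB1, TGFB2 and TGFB3 in their summed deposited FPKM (percent, y axis) in each of the 9 libraries (x axis). TGFB2 is the largest part in all LG libraries (64.9% to 74.3%), and TGFB3 is the largest part in all DP libraries (42.1% to 66.4%).

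The receptor genes moved apart. TGFBR2 was highest in LG and TGFBR1 was lowest there. TGFBR2 (gene ID 100861300, chromosome 22, 5019184 to 5109134, plus strand), which encodes the receptor that binds ligand first, had 10.31, 11.43 and 14.76 FPKM at LL, 45.27, 43.10 and 89.55 at DP, and 115.22, 122.02 and 118.00 at LG. The stages did not overlap, in the order LL, DP, LG, on both the deposited and the scaled values. The scaled mean was 21.9 ± 2.13 (SD, n = 3) FPKM at LL, 40.6 ± 18.7 at DP and 94.98 ± 4.68 at LG. TGFBR2 rose in LG by a log2 fold change of 2.07 (SE 0.26, adjusted p = 0.000216) against LL and 1.29 (SE 0.26, adjusted p = 0.00442) against DP. For DP against LL it was 0.78 (SE 0.26, adjusted p = 0.0285), short of a call. Under quantile normalization LG against DP was 0.99 (adjusted p = 0.0152), just short of a call, and DP against LL was 1.21 (adjusted p = 0.00363), a call.

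TGFBR1 (gene ID 102187767, chromosome 8, 63759178 to 63829333, plus strand), which encodes the kinase that phosphorylates SMAD2 and SMAD3, had 7.0, 6.69 and 9.06 FPKM at LL, 12.05, 13.90 and 28.54 at DP, and 4.69, 5.28 and 6.83 at LG. After scaling, every LG library lay below every library of the other stages, while LL and DP overlapped. TGFBR1 was lower in LG by -1.43 (SE 0.27, adjusted p = 0.00233) against LL and by -1.20 (SE 0.27, adjusted p = 0.00834) against DP. Without scaling, LG against LL was -0.38 (adjusted p = 0.238), no longer a call. Without DP replicate 3, LG against DP was -0.84 (adjusted p = 0.00530), also no longer a call. DP against LL gave -0.23 (95% confidence interval -0.84 to 0.39, adjusted p = 0.499) and turned to 1.07 without scaling, about the shift of the median gene.

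TGFBR3 (gene ID 102169722, chromosome 3, 68891052 to 69076937, minus strand), the co-receptor gene, was the most abundant of the 10 genes in LL. It had 19.29, 22.18 and 22.75 FPKM at LL, 45.45, 51.22 and 50.02 at DP, and 72.38, 61.12 and 53.23 at LG. On the scaled values DP lay lowest and LG highest with no overlap. Its log2 fold change was -0.22 (95% confidence interval -0.59 to 0.16, adjusted p = 0.289) for DP against LL, with the sign turned without scaling (1.16), and 0.34 (adjusted p = 0.114) for LG against LL. LG against DP gave 0.56 (SE 0.17, adjusted p = 0.0276), below the size of a call.

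Within a library, the level of TGFBR2 over that of TGFBR1 separated the 3 stages. TGFBR2 was on average 1.60-fold of TGFBR1 at LL, 3.32-fold at DP and 21.4-fold at LG (geometric means of 3 libraries). On the log2 scale the ratio was 0.56, 0.77 and 0.70 at LL, 1.91, 1.63 and 1.65 at DP, and 4.62, 4.53 and 4.11 at LG. The one-sided exact permutation test gave p = 0.00357, the smallest it can give, and 0.0214 after adjustment over the 6 measures. DP replicate 3, which was highest in DP for both receptors, did not stand apart in their ratio.

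TGFB3 and TGFBR2 stand in a set of 1375 alphabetically sorted rows of the table, while the other 8 genes stand among 22112 rows sorted by their level in LG. The median log2 fold change of the tested genes in the alphabetical rows in DP against LL, LG against LL and LG against DP was -1.11, -0.68 and 0.67, and in the sorted rows it was 0.05, 0.05 and -0.01. With factors computed within each set of rows, TGFBR2 in LG against DP was 0.76 (adjusted p = 0.0614) and no longer called, and in DP against LL it was 1.95 (adjusted p = 0.000368) and called. TGFB3 in DP against LL was 2.64 and in LG against DP -2.60, both called. On these values the TGFB3 share of the ligands was 37.3%, 30.7% and 17.5% at LL and 54.2%, 57.4% and 76.5% at DP, with no overlap, and 15.2% to 21.4% at LG (one-sided exact permutation p = 0.00714). The TGFB1 share was 3.70% ± 2.03 (SD, n = 3) at LL, 12.3% ± 4.62 at DP and 12.7% ± 1.43 at LG (one-sided exact permutation p = 0.0393), so DP no longer had the highest mean. The p for the TGFB2 share was 0.0286 in the same exact permutation test. The log2 ratio of TGFBR2 to TGFBR1 was 0.13 ± 0.13 (SD, n = 3) at LL, 2.44 ± 0.15 at DP and 4.56 ± 0.33 at LG, in the same order. What set these rows apart was not tested.

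SMAD3 followed the pattern of a DP peak, and SMAD2 did not pass the test in any comparison. SMAD3 (gene ID 102169293, chromosome 10, 87246219 to 87373326, minus strand) had 1.30, 1.70 and 2.41 FPKM at LL, 10.74, 10.55 and 12.27 at DP, and 3.37, 5.0 and 2.62 at LG. All DP libraries stood above all others, and LL and LG overlapped after scaling. SMAD3 rose by 1.04 (SE 0.20, adjusted p = 0.00176) in DP against LL and was lower by -1.15 (SE 0.20, adjusted p = 0.00189) in LG against DP. These differences lay close to the size needed for a call, and fell short of it at 0.93 (DP against LL without LL replicate 1), 0.97 (the same without DP replicate 3) and -0.97 (LG against DP without LG replicate 3), with adjusted p of 0.00854, 0.00605 and 0.00571. With factors within each set of rows, DP against LL was 0.9986 (adjusted p = 0.00226), also just short. For LG against LL, SMAD3 gave -0.11 (95% confidence interval -0.55 to 0.32, adjusted p = 0.649), and 0.72 without scaling.

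SMAD2 (gene ID 102188455, chromosome 24, 47692541 to 47777127, minus strand) had 4.06, 5.71 and 5.50 FPKM at LL, 16.60, 16.08 and 17.45 at DP, and 11.52, 10.96 and 12.66 at LG. After scaling its means were 9.19 ± 1.09 (SD, n = 3), 11.4 ± 0.660 and 9.38 ± 0.429 FPKM, the narrowest relative range of means among the 10 genes. The log2 fold change of DP against LL was 0.29 (adjusted p = 0.0708), that of LG against LL 0.03 (adjusted p = 0.848) and that of LG against DP -0.25 (adjusted p = 0.137). The 3' end of SMAD2 overlaps LOC108633793, which lies on the opposite strand.

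SMAD7 (gene ID 102190008, chromosome 24, 48805330 to 48834225, minus strand), the inhibitor gene, had 0.24, 0.29 and 0.48 FPKM at LL, 3.25, 2.0 and 2.73 at DP, and 1.21, 1.24 and 1.1 at LG. The 3 stages did not overlap, with DP highest and LL lowest. As for TGFB1, all LL values were below 0.5 FPKM, and SMAD7 entered the test through its DP and LG libraries. DP against LL gave a log2 fold change of 0.81 (SE 0.14, adjusted p = 0.00112), LG against LL gave 0.29 (adjusted p = 0.111) and LG against DP gave -0.52 (adjusted p = 0.0186). None reached the size of a call. For DP against LL the value was 1.45 (adjusted p = 0.00107) and called with a pseudocount of 0.1, and 0.23 (adjusted p = 0.266) under quantile normalization.

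Within a library, SMAD3 was nearest to SMAD2 in DP. The log2 ratio of SMAD3 to SMAD2 was -1.64, -1.75 and -1.19 at LL, -0.63, -0.61 and -0.51 at DP, and -1.77, -1.13 and -2.27 at LG, so that SMAD3 stood at 0.668 of SMAD2 at DP, 0.347 at LL and 0.302 at LG. The one-sided exact permutation p was 0.0214, also after adjustment, and LL and LG overlapped. The log2 ratio of SMAD7 to the sum of SMAD2 and SMAD3 was -4.48, -4.68 and -4.04 in LL, below all DP libraries (-3.07, -3.73 and -3.44) and all LG libraries (-3.62, -3.69 and -3.80). Its one-sided exact permutation p was 0.0107 (0.0214 adjusted), and DP and LG overlapped. The LL ratios rest on SMAD7 values below 0.5 FPKM.

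**Figure D3:**
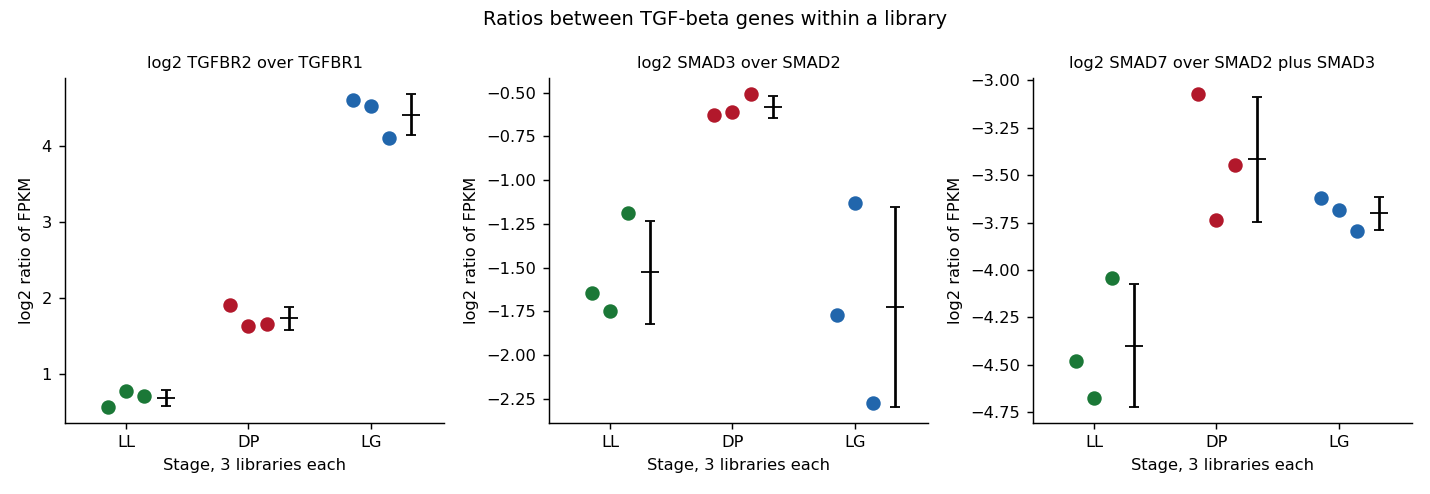
Log2 ratios of deposited FPKM between TGF-beta genes (y axis, a separate range in each panel) in each library, grouped by stage (x axis). Points are libraries, and bars are the mean and SD of 3. The TGFBR2 to TGFBR1 ratio rises from 0.68 at LL through 1.73 at DP to 4.42 at LG, while the SMAD3 to SMAD2 ratio is highest at DP (-0.58).

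TGFBI, whose product is a matrix protein named for its induction by TGF-beta, was higher at DP and at LG than at LL. TGFBI (gene ID 102182971, chromosome 7, 63024482 to 63057767, minus strand) had 3.02, 2.88 and 5.03 FPKM at LL, 20.30, 20.90 and 38.81 at DP, and 25.66, 29.33 and 14.97 at LG. All DP and LG libraries stood above all LL libraries, and DP and LG overlapped. TGFBI rose by 1.31 (SE 0.32, adjusted p = 0.00701) in DP against LL and by 1.36 (SE 0.32, adjusted p = 0.00652) in LG against LL. LG against DP gave 0.05 (95% confidence interval -0.67 to 0.77), with a sign that turned in several alternatives. Without DP replicate 3, DP against LL was 1.00 (adjusted p = 0.0182), at the limit of a call.

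Over the 10 genes, 4 were called higher in DP against LL (TGFB1, TGFB3, SMAD3 and TGFBI) and 0 lower, where 13.8% of all tested genes were called higher and 8.79% lower. The median log2 fold change of the 10 was 0.79, and that of all tested genes 0.00. In LG against LL, 2 were called higher (TGFBR2 and TGFBI) and 1 lower (TGFBR1), where 10.7% and 6.61% of all genes were called, with medians of 0.32 and 0.02. In LG against DP, 1 was called higher (TGFBR2) and 3 lower (TGFB3, TGFBR1 and SMAD3), where 6.37% and 6.88% of all genes were called, with medians of -0.38 and 0.01. In either direction, 22.6%, 17.3% and 13.3% of all tested genes were called in these comparisons. By the adjusted p alone, 7 of the 10 passed in DP against LL (7 higher), 5 in LG against LL (4 higher and 1 lower) and 7 in LG against DP (2 higher and 5 lower), where 56.9%, 50.2% and 34.8% of all genes passed. These comparisons share libraries, and LL enters the first 2 of them. The stages did not overlap on scaled values for 9, 7 and 8 of the 10 genes in the 3 comparisons, against 65.9%, 61.1% and 47.9% of all genes. On the deposited values without scaling, all 10 were called higher in DP than in LL, where 56.8% of all genes were called in either direction.

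**Figure D4:**
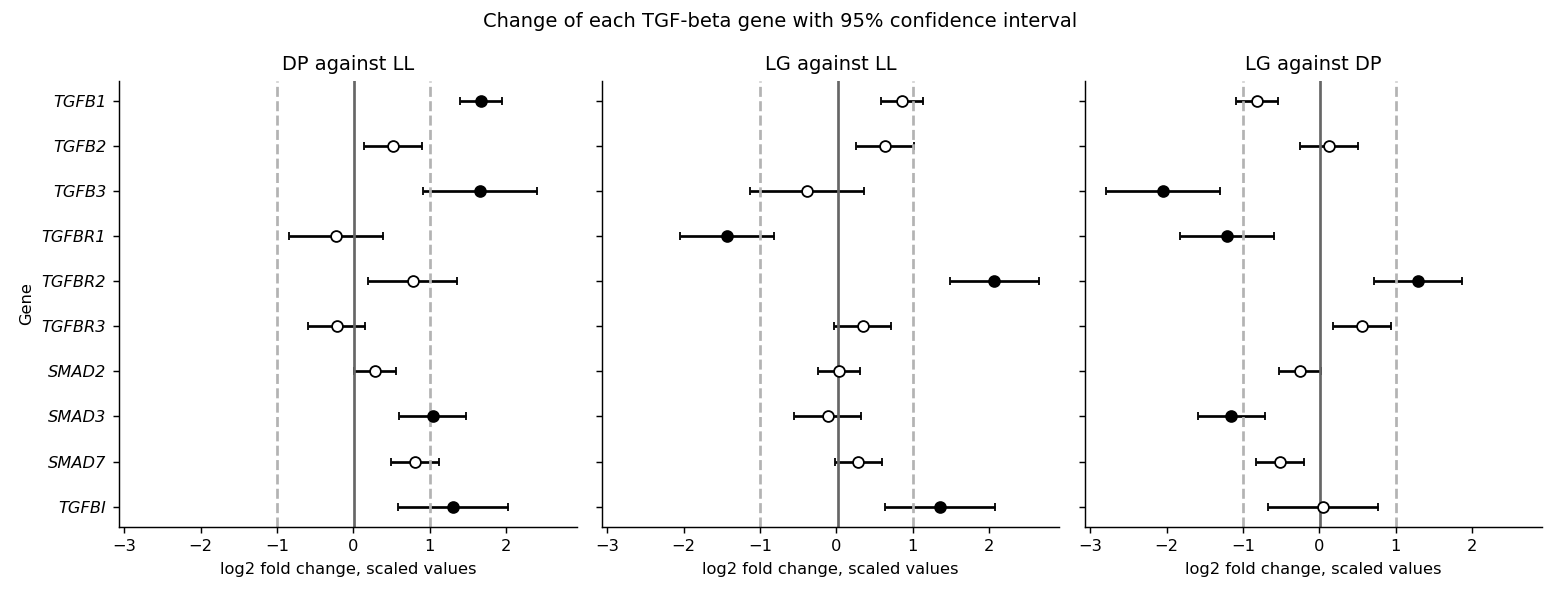
Log2 fold change of scaled FPKM (x axis) of each TGF-beta gene (y axis) in the 3 comparisons, with 95% confidence intervals from limma. Filled points are called, dashed lines mark a size of 1, and the grey line is the median of all tested genes. TGFB3 is called higher in DP against LL (1.66) and lower in LG against DP (-2.05), and TGFBR2 and TGFBR1 are called in opposite directions in both comparisons of LG. TGFBR2 in LG against DP was not called under quantile normalization (0.99) or with factors within each set of rows. TGFBR1 was not called in LG against LL without scaling, or in LG against DP without DP replicate 3.

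Several genes from a list of the latency and activation of the ligand were called higher in DP than in LL. A gene of these lists that passed the filter on low values only through 1 stage was selected for a high level there. The 8 such genes (LTBP2, SMAD9, CDKN2B, SNAI1, TNC, INHBB, FST and GDF10) were therefore left out of the counts and medians below. Of the other 13 genes of latency and activation, 6 were called higher and 0 lower in DP against LL, with a median of 0.99, where 13.8% and 8.79% of all tested genes were called. They were the latent TGF-beta binding protein genes LTBP1 (1.49), LTBP3 (1.65) and LTBP4 (1.44), with ITGB8 (1.20), an integrin subunit of ligand release, the microfibril gene FBN1 (1.93) and EMILIN1 (1.33). Among those not called were THBS1 (0.99, adjusted p = 0.187) and FURIN (0.49, adjusted p = 0.0280). The integrin genes ITGAV (0.13, adjusted p = 0.414) and ITGB6 (0.26, adjusted p = 0.681) were not called either. Without DP replicate 3 the median was 0.53, with 6 genes called higher, and without scaling 11 of the 13 were called higher (median 1.98). Without scaling, 7979 of all 14701 tested genes were called higher as well. LTBP2, the remaining gene of its family, had 0.41, 0.23 and 0.33 FPKM at LL, 4.95, 4.5 and 30.32 at DP, and 0.25, 0.39 and 0.42 at LG. In LG against LL, 1 of the 13 was called higher, LTBP1 (1.41, SE 0.41, adjusted p = 0.0171), and 0 lower. Of all tested genes, 10.7% were called higher and 6.61% lower there. In LG against DP, 0 were called higher and 3 lower, namely LTBP3 (-1.52), LTBP4 (-2.07) and LRRC32 (-1.06), which anchors latent TGF-beta on the cell surface. LTBP1 was not called in LG against DP (-0.08, adjusted p = 0.899). Without DP replicate 3, 2 were called lower in LG against DP, and without scaling 7. Of all 14701 tested genes, 6.88% were called lower in LG against DP, and 1577 genes without scaling.

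Of 7 other receptor and SMAD genes, SMAD1, a transducer of the BMP branch, was the 1 called in DP against LL (1.11, SE 0.14, adjusted p = 0.000172). It had 2.64 ± 0.709 (SD, n = 3) FPKM at LL, 16.7 ± 1.25 at DP and 6.36 ± 0.771 at LG. In LG against DP, 2 were called lower, SMAD1 (-1.02) and ACVRL1 (-1.47, SE 0.27, adjusted p = 0.00275), an endothelial type I receptor gene, and 0 were called in LG against LL. In either direction, 22.6%, 17.3% and 13.3% of all tested genes were called in DP against LL, LG against LL and LG against DP. SMAD4, the shared partner of SMAD2 and SMAD3, was at 0.47 in DP against LL (adjusted p = 0.00584) and 0.40 in LG against LL (adjusted p = 0.0138), not called.

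Among 16 tested regulators of the signal, TGIF1 and TGIF2, which encode repressors that bind SMAD2 and SMAD3, peaked at different stages. TGIF1 had 1.83 ± 0.430 (SD, n = 3) FPKM at LL, 15.4 ± 2.77 at DP and 3.70 ± 0.332 at LG, and was called higher in DP against LL (1.41, adjusted p = 4.43e-05) and lower in LG against DP (-1.52, adjusted p = 0.000114). TGIF2 had 1.94 ± 0.844, 7.96 ± 1.22 and 16.2 ± 3.54 FPKM, and was called higher in LG against LL (1.66, adjusted p = 0.000131) and against DP (1.11, adjusted p = 0.00206). WWP1, a ubiquitin ligase gene of the pathway, was the other regulator called in DP against LL (1.102) and in LG against DP (-1.35). No other regulator was called in any comparison, and the medians of the 16 were 0.41, 0.05 and -0.05. The shares of all tested genes called in either direction were 22.6%, 17.3% and 13.3%.

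Among textbook target genes of the pathway, genes of the extracellular matrix were called higher in DP. Of 18 genes, 9 were called higher and 0 lower in DP against LL, with a median of 1.33. Of all tested genes, 13.8% were called higher and 8.79% lower. The largest was POSTN (periostin), at 2.48 ± 1.75 (SD, n = 3) FPKM at LL, 53.7 ± 6.995 at DP and 10.9 ± 8.43 at LG, a log2 fold change of 2.97 (SE 0.55, adjusted p = 0.00169). The others were the collagen genes COL1A1 (2.37), COL1A2 (2.29) and COL3A1 (2.16), the matrix genes FN1 (2.04) and VCAN (2.27), the protease inhibitor gene TIMP1 (1.81), the collagen crosslinker gene LOX (1.84) and ID3 (1.21). Without DP replicate 3, 7 were called higher and the median was 0.79, and without scaling all 18 were called (median 2.66). Without scaling, 7979 of all 14701 tested genes were called higher as well, with a median of 1.09. Other textbook targets were not called, among them CTGF (0.53, adjusted p = 0.474) and CDKN1A (-0.08, adjusted p = 0.855).

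In LG against LL, 3 of the 18 target genes were called higher, COL3A1 (2.42, SE 0.53, adjusted p = 0.00458), COL1A1 (2.12) and CTGF (1.83), and 1 was called lower, the cell-cycle inhibitor gene CDKN1A (-2.24, SE 0.37, adjusted p = 0.00100). Of all tested genes, 10.7% were called higher and 6.61% lower there. In LG against DP, 0 were called higher and 5 lower, namely TIMP1 (-2.27, SE 0.47, adjusted p = 0.00497), POSTN (-2.25), CDKN1A (-2.15), VCAN (-1.996) and FN1 (-1.81). The shares of all tested genes in that comparison were 6.37% higher and 6.88% lower. The collagens of the list were not called between LG and DP, with COL1A1 at -0.25 (adjusted p = 0.808), COL1A2 at -0.61 and COL3A1 at 0.26.

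In the activin, BMP and GDF branch, 22 of 25 genes were found and 17 were tested, of which 14 did not depend on 1 stage to pass the filter. INHBB, which encodes an activin and inhibin subunit, had 0.327 ± 0.170 (SD, n = 3) FPKM at LL, 11.8 ± 0.552 at DP and 0.367 ± 0.133 at LG, and passed the filter through DP. Of the 14 genes, the activin antagonist gene FSTL3 (1.95), its relative FSTL1 (1.46) and the BMP antagonist gene GREM1 (1.69) were called higher in DP against LL, and FSTL3 was called lower in LG against DP (-2.26). The shares of all tested genes were 13.8% higher in DP against LL and 6.88% lower in LG against DP. BMP4 had 0.263 ± 0.0802, 2.92 ± 1.61 and 7.67 ± 4.23 FPKM and was called higher in LG against LL (2.14, adjusted p = 0.00213) and against DP (1.18, adjusted p = 0.0464). All LL values of GREM1 and BMP4 were below 0.5 FPKM. Both genes entered the test through their DP and LG libraries, so the filter favoured their calls above LL.

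Some calls in these lists ended when 1 library was left out. In DP against LL the highest adjusted p on such removal was 0.0600 for FBN1, 0.0618 for FN1, 0.0809 for LOX and 0.0588 for ID3, and FSTL1 was at 0.94 without DP replicate 3. In LG against LL it was 0.0654 for LTBP1, 0.0998 for CTGF and 0.0936 for COL1A1. In LG against DP it was 0.133 for FN1, 0.0630 for VCAN and 0.147 for BMP4, while LRRC32 was at -0.91 and SMAD1 at -0.96 without DP replicate 3, and TGIF2 at 0.99 without LG replicate 3. All other calls named above for genes outside the 10 held with each library left out in turn. Without scaling, TGIF2 (0.93) and BMP4 (1.07, adjusted p = 0.0600) were no longer called in LG against DP, and with quantile normalization ITGB8 (0.79) was no longer called in DP against LL. With factors within each set of rows, 11 of the 18 target genes were called higher in DP against LL (median 1.85). In LG against LL 5 of them were called higher and 1 lower, and in LG against DP 6 lower. The 13 latency genes gave 6 higher (median 0.94), 1 higher and 4 lower in these comparisons. Of all 14701 tested genes, 2139 and 1715 were called higher in the comparisons with LL, and 1030 lower in LG against DP.

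**Figure D5:**
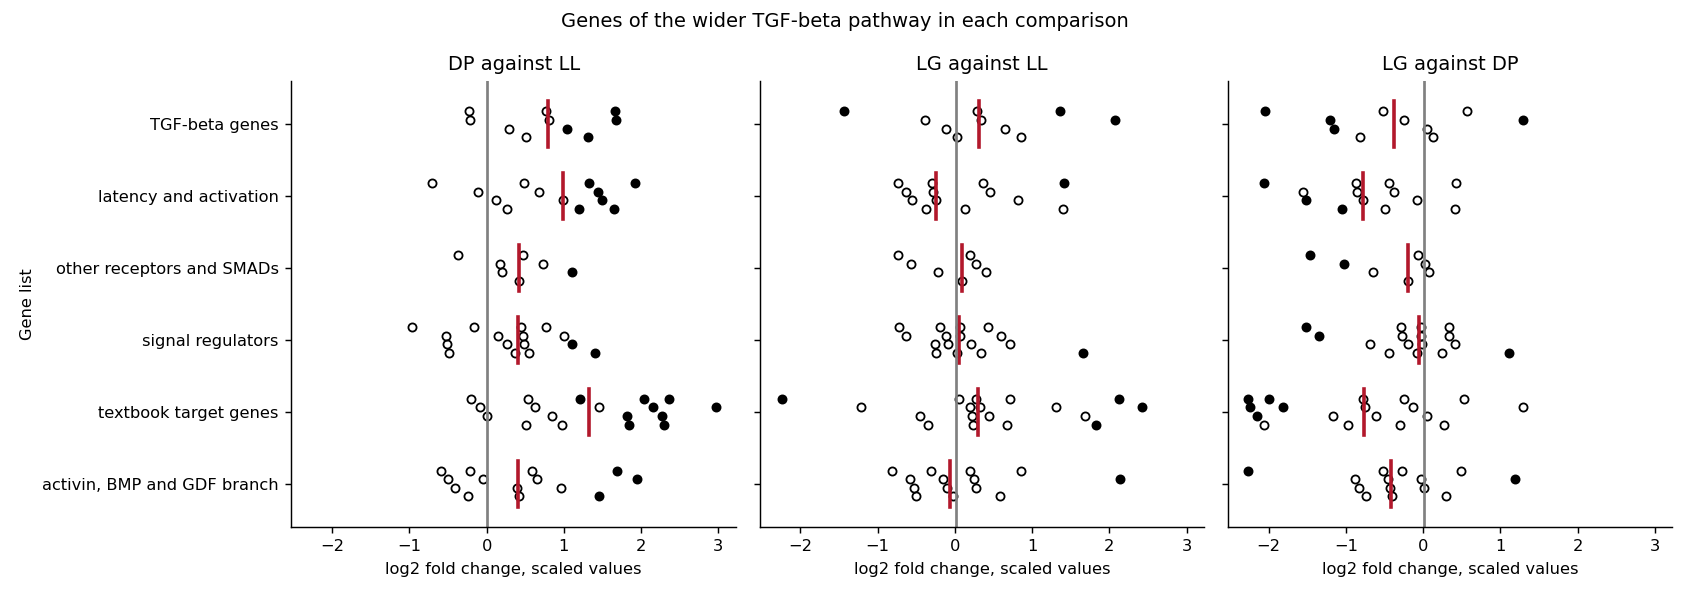
Log2 fold change of scaled FPKM (x axis) of the genes of 6 lists (y axis) in the 3 comparisons, without those that passed the filter on low values through 1 stage alone. Filled points are called, red bars are list medians and the grey line is the median of all tested genes. In DP against LL the medians of latency genes (0.99) and target genes (1.33) lie right of the line, and in LG against DP they lie left of it (-0.78 and -0.76).

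Markers of some other cell types differed between these stages, while those of others overlapped. The summed scaled FPKM of 7 fibroblast markers, all above 0 in every library, was 218 to 332 at LL, 518, 923 and 2415 at DP replicates 1, 2 and 3, and 527 to 962 at LG. The collagen genes COL1A1, COL1A2 and COL3A1, which are in the target list too, summed to 107 to 168 at LL, 253 to 1777 at DP and 429 to 832 at LG. The other 4 fibroblast markers (DCN, LUM, PDGFRA and PDGFRB) summed to 107 to 163, 265 to 638 and 98.8 to 130, so that LL and LG overlapped in them. Among the DP libraries, replicate 3 was highest in both sums and in TGFB2, TGFB3, TGFBR1, TGFBR2, SMAD2, SMAD3 and TGFBI. It was not highest in TGFB1, TGFBR3 and SMAD7. Of 7 macrophage markers, 6 were found, and their sum was 41.2 to 48.7 at LL, 83.0 to 100.5 at DP and 29.1 to 32.1 at LG. The sum of 6 endothelial markers was 109 to 138 at LL, 129 to 199 at DP and 62.6 to 86.5 at LG, and that of 7 leukocyte and lymphocyte markers was 11.7 to 13.2, 28.3 to 85.1 and 17.2 to 27.9, with MS4A1 at 0 in a library. LL and DP overlapped in the endothelial sum. For 7 myoepithelial markers, with ACTA2 also in the target list and OXTR at 0 in a library, the sum was 189 to 247, 141 to 458 and 229 to 310, and the stages overlapped. Of these, TP63 was called higher in DP (1.47) and in LG (1.60) against LL, with all LL values below 0.5 FPKM. OXTR, which passed the filter through LG alone, was called higher in LG against LL (2.11) and against DP (1.41). The other myoepithelial markers were not called. Of all tested genes, 13.8%, 10.7% and 6.37% were called higher in DP against LL, LG against LL and LG against DP. For 4 adipocyte markers, with LEP at 0 in a library, the sum was 2.71 to 3.72, 2.57 to 20.4 and 1.14 to 1.69, with 20.4 in DP replicate 1. The part of these cells in the TGF-beta results was not tested. These sums use factors over all rows. In DP against LL the median log2 fold change was 1.85 for fibroblast and 0.79 for macrophage markers. With factors within each set of rows these medians were 3.05 and 1.46. The 6 milk-secreting cell markers fell from a sum of 167978 to 271466 at LL to 43.8 to 63.4 at DP and stood at 4674 to 5872 at LG, while of 6 luminal epithelial markers 1, ELF5, was called lower in DP than in LL (-4.19, adjusted p = 3.13e-06). The other 5 (KRT8, KRT18, KRT19, EPCAM and CDH1) summed to 343 to 431 at LL, 243 to 478 at DP and 324 to 393 at LG, and the stages overlapped.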

How the data were processed

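Mammary gland RNA of 9 goats was sequenced by the study, 1 library per animal and 3 per stage. The authors checked reads with FastQC, trimmed them with Trimmomatic, aligned them with HISAT2. StringTie is named for quantification in the study's methods and HTSeq in the submitters' notes. The deposited table names no unit and no genome build. The deposited values were taken to be FPKM that the authors computed from aligned reads, since FPKM is the study's unit and the values have decimals and unequal sums. How transcripts became 1 value per gene is not given in the sources used here. Gene IDs and positions are those of the table.

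Stages came from the sample titles. Of 23499 genes, 15905 gave median-ratio factors. limma 3.58.1 in R 4.3.3 (trended eBayes, all 9 libraries, stage as the only term) was fitted to 14701 genes reaching 0.5 FPKM in 3 or more libraries, on log2(scaled FPKM + 1), which replaces a count test. The script was tested on simulated data. Shares and ratios used exact permutation tests in Python 3.11.15. Genes named are the 10 members, from each pathway list the called gene with the largest change in each direction of each comparison, other genes of a list named after their values were seen, and the 3 genes most alike in pattern to each ligand and TGFBI. Counts over the pathway lists leave out genes that passed the filter through 1 stage alone, a choice made after seeing the data. The members and lists were chosen with earlier results of these data known. Nothing says how RNA extraction was batched. The limma p-values weigh a difference between stages against the spread between animals of the same stage, moderated over all genes. Linked rows, whose values follow a neighbour on a straight line, numbered 599 genes, and no member was among them.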

Additional observations from a re-analysis of the deposited data

How the results depend on the processing

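The number of the 10 genes called for DP against LL, LG against LL and LG against DP, in this order, was 4, 3 and 4. Without scaling these were 10 and 6 for the comparisons with LL, and with GAPDH and MRPL39 as the reference, a choice made after seeing the data, 9 and 6. With the adjusted p alone they were 7, 5 and 7. Leaving out 1 library gave 3 to 4, 3 to 3 and 3 to 4. The filters, the trend, the 6-library fits, pseudocount 0.1, quantile normalization, the removal of linked genes and factors within each set of rows (also chosen after seeing the data) kept each count within 1.5 times. With factors within each set of rows, TGFBR2 replaced SMAD3 among the genes called in DP against LL.

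Directions turned as follows. In DP against LL, TGFBR1 was 1.07 without scaling, 0.94 with GAPDH and MRPL39 and -0.59 to 0.023 when 1 library was left out (0.023 without DP replicate 1), and TGFBR3 was 1.16, 1.02 and, under quantile normalization, 0.29. In LG against LL, TGFB3 was 0.36 without scaling, 0.37 with GAPDH and MRPL39 and 0.042 with factors within each set of rows. SMAD3 was 0.72 and 0.73 under the first 2 of these, and -0.31 to 0.069 when 1 library was left out (0.011 without LL replicate 3 and 0.069 without LG replicate 3). SMAD2 was -0.043 to 0.11 when 1 library was left out (-0.043 without LL replicate 1), and SMAD7 was -0.27 under quantile normalization. In LG against DP, TGFB2 was -0.081 without scaling. TGFBI was -0.17 without scaling, -0.13 under quantile normalization, -0.032 with GAPDH and MRPL39, and -0.14 to 0.36 when 1 library was left out (-0.13 without DP replicate 1, -0.071 without DP replicate 2, -0.068 without LG replicate 1 and -0.14 without LG replicate 2). The causes beyond the construction of each alternative were not tested.

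When 1 library was left out, the exact permutation p ranged from 0.00357 to 0.0357 for the TGFB1 share, 0.00357 to 0.0214 for TGFB2, 0.00714 to 0.0536 for TGFB3, 0.00714 to 0.0786 for SMAD3 over SMAD2, 0.00714 to 0.0536 for SMAD7 over SMAD2 plus SMAD3, and stayed at 0.00357 for TGFBR2 over TGFBR1, where 8 libraries also allow fewer arrangements.

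With the replicate number as a block, 4, 3 and 4 genes were called, and no call of the 10 genes changed. Deviations of same-numbered libraries correlated between -0.11 and 0.20 across stages, so the numbers were not read as pairs. Depth could not be weighed, because FPKM carry no counts.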

Other observations

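The genes most alike to the ligands over the 9 libraries, among 10248 genes with a symbol and a mean of at least 2 FPKM, are given by Pearson's r of the scaled log2 values, as a description with no test. The libraries fall into 3 stages, so these values mostly describe a shared order of stages. For TGFB1 they were IFT81 (r = 0.988), an intraflagellar transport gene, DNAJC18 (0.988) and MIGA1 (0.987). For TGFB2 they were SESTD1 (0.959), MCAT (0.953) and LYRM9 (0.951). For TGFB3 they were the receptor tyrosine kinase gene AXL (0.986), the cytokine gene TNFSF12 (0.983) and FNDC3B (0.981). AXL had 3.05 ± 0.171 (SD, n = 3) FPKM at LL, 19.7 ± 5.93 at DP and 6.79 ± 0.837 at LG. For TGFBI they were LZTS2 (0.970), LBH (0.970) and EPB41L2 (0.969). LBH had 1.27 ± 0.408 (SD, n = 3) FPKM at LL, 12.5 ± 6.47 at DP and 8.80 ± 3.13 at LG.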
